A study of Mus musculus with 15 samples.

Results

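The proteins of the mitochondrial ribosome are encoded in the nucleus, and their transcripts were followed here through the gene names that begin with Mrpl (large subunit) or Mrps (small subunit), a number and at most 1 further letter. The array carried 75 such names, 46 of them Mrpl and 29 Mrps, among 31829 gene names in all, read by 95 probes. For each name the probe with the highest mean signal was used, except for Mrpl47, whose brightest probe was flagged as an outlier on 2 arrays and gave way to its other probe. For 74 names the probe used was well above background on all 15 arrays, so these 74 stand among the 25090 genes that were tested. The exception was Mrpl21, whose probe read between 2.07 and 20 intensity units and was well above background on 7 of 15 arrays; no change is given for it. The names cover most proteins of the particle but not every one, and 7 further measured subunits with other names are counted apart.

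Mitochondria keep a ribosome of their own that translates the few messages of mitochondrial DNA, all of which code for subunits of the respiratory chain and ATP synthase. The particle derives from that of bacteria: part of its proteins have bacterial counterparts, and the others were added during the evolution of mitochondria. Embryonic stem cells are known to have sparse, immature mitochondria and to rely strongly on glycolysis, and mitochondria are remodelled as these cells differentiate.

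The samples were mouse embryonic stem cells that carried the control hairpin RNA shCTR or the hairpin sh4, and that were untreated or kept for 72 hours with 1 µM retinoic acid, a vitamin A derivative used to make such cells differentiate. Total RNA of each sample, 500 ng, was labelled with Cy3 and hybridised alone to an Agilent 1-colour array. There were 4 arrays of untreated shCTR, 4 of untreated sh4, 4 of shCTR with retinoic acid and 3 of sh4 with retinoic acid (replicates 1, 3 and 4). The labels give the sh4 samples no target gene, strain or cell line; the series title names Phf19, a subunit that recruits Polycomb repressive complex 2. The titles call the samples biological replicates without naming separate cultures, so the p-values measure the spread between these samples, which may be technical. For untreated cells no time in culture is given, and an effect of retinoic acid cannot be told apart from that of 72 hours of culture.

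Levels below are log2 signals relative to the array's 75th percentile, and differences are log2 fold changes ± standard error with p-values from limma, adjusted over all 25090 genes by the method of Benjamini and Hochberg. "Rose", "fell" and "changed" are used where the adjusted p was under 0.05. A level describes 1 probe, so levels of different genes are not compared. In bulk RNA, fewer cells of one type and less RNA per cell cannot be told apart, and a change is relative to the other RNA on the array. Phf19 lay between −0.98 and −0.69 in untreated shCTR, −2.61 and −2.51 in untreated sh4, −3.06 and −2.80 in shCTR with retinoic acid and −3.97 and −3.71 in sh4 with retinoic acid. The sh4 arrays thus held less Phf19 RNA than the shCTR arrays of the same treatment, by −1.73 ± 0.09 in untreated cells (adjusted p = 7.4e-09) and −0.88 ± 0.09 in retinoic acid (adjusted p = 1.9e-05). The share of probes well above background ran from 73.8% to 79.4% per array, no spot was saturated, and the number of arrays limits the precision.

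The cells' identity moved with the treatment. The summed level of 7 stem cell markers (Pou5f1, Sox2, Nanog, Zfp42, Esrrb, Klf4 and Dppa5a) was 297 to 377 times the array's 75th percentile in untreated shCTR and 267 to 316 in untreated sh4, against 94.9 to 103 and 51.4 to 62.1 after retinoic acid. With retinoic acid 6 of the 7 fell in shCTR and 7 of 7 in sh4. The sum of 7 endoderm markers went the other way, from 0.90 to 1.02 in untreated shCTR and 0.274 to 0.287 in untreated sh4 to 13.1 to 15.1 and 4.58 to 4.77 after retinoic acid. The sum of 8 fibroblast markers, which feeder cells or mesenchyme would carry, was 2.50 to 2.85 and 1.01 to 1.14 untreated and 6.95 to 8.58 and 9.09 to 9.35 after retinoic acid; Col3a1, Dcn, Lum and Postn were well above background on no untreated shCTR array. The sum of 4 neural markers was 4.62 to 6.13 in untreated and 4.24 to 4.87 in treated shCTR, and 2.93 to 3.75 in untreated and 5.11 to 6.34 in treated sh4. Of these 4 markers 2 rose and 2 fell with retinoic acid in shCTR, and 1 rose and 2 fell in sh4. Of the 8 fibroblast markers 7 rose and 1 fell with retinoic acid under each hairpin. Of the 7 endoderm markers 7 rose in shCTR, and 6 rose and 1 fell in sh4. Ttr was well above background on no untreated array of either hairpin, and Afp and Postn on no untreated sh4 array. These markers, and the 4 fibroblast markers named above, can be among the genes tested because they read high in treated groups. Their calls are therefore not used as support. Between untreated sh4 and untreated shCTR 3 fibroblast markers were higher and 3 lower, so their lower sum in sh4 does not hold for each marker. The sum of 5 blood and endothelial markers lay between 0.971 and 2.40 over all arrays, and 2 rose and 2 fell under each hairpin. Cdh5, 1 of them, was well above background on no untreated sh4 array. What part these changes in cell makeup have in the results on the mitochondrial ribosome was not tested.

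Promoter windows show what the genes share at their start sites. RefSeq windows on GRCm38.p6, from 250 bases before to 50 after the start, were found for 66 of the 75 names. The ETS core CGGAAG, the letters that GABP (nuclear respiratory factor 2) recognises, stood in the windows of 37 of these 66 genes (56.1%), against 18.8% of all 27025 genes with a window. The NRF1 core GCATGCG stood in 8 (12.1%, against 4.01%) and the YY1 core AGATGGC in 11 (16.7%, against 7.31%). The GC box GGGCGG was found in 32 (48.5%, against 38.2%), the E-box CACGTG in 5 (7.58%, against 8.09%) and the TATA box TATAAA in 5 (7.58%, against 15.7%). All motifs were searched on both strands. Matches can overlap, since the GC box ends with the letters that begin the ETS core. A match is a stretch of letters and not a measured binding site.

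Start regions of 5 genes are printed, 250 bases before the start and 28 to 31 after it, with NRF1, ETS and YY1 cores in capitals. Mrpl35 had the largest fall in shCTR and Mrps18b the largest in sh4, Mrps12 shares its start region with the tRNA synthetase gene Sars2, Mrpl24 fell with no such core in its window, and Mrpl41 rose in shCTR with none either.
Mrpl35, chr6:71823754-71824034, minus strand: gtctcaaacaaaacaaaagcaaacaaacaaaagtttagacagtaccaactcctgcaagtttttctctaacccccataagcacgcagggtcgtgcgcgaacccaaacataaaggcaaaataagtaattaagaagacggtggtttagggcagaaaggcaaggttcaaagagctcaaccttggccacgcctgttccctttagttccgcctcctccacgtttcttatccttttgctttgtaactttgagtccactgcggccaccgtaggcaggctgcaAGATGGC
Mrps18b, chr17:35916413-35916690, minus strand: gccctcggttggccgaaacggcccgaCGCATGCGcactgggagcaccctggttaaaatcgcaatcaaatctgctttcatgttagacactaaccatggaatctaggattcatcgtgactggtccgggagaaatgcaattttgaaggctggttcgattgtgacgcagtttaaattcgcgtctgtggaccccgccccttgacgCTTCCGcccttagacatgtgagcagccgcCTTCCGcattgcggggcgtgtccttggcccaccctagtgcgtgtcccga
Mrps12, chr7:28741792-28742071, minus strand: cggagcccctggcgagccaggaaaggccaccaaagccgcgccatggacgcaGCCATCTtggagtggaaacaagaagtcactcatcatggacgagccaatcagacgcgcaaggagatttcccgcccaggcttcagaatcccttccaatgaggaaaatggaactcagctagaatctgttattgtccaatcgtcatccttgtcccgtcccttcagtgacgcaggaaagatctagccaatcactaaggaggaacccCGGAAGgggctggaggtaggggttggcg
Mrpl24, chr3:87919294-87919573, plus strand: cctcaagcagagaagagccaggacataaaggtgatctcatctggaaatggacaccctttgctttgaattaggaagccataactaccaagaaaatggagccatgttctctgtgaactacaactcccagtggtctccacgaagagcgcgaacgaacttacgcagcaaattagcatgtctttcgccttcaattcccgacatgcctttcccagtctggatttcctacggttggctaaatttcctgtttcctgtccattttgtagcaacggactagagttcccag
Mrpl41, chr2:24975069-24975348, minus strand: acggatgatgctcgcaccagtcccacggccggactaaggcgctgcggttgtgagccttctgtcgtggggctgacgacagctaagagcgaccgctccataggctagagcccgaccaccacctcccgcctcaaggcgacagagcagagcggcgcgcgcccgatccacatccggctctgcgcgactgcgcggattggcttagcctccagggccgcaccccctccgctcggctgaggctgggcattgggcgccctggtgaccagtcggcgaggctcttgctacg
In these windows Mrpl35 carries a YY1 core after its start, Mrps12 a YY1 core on the opposite strand and an ETS core at its start, and Mrps18b an NRF1 core that reads on either strand and ETS cores on the opposite strand. Cores stood in windows of genes that fell and of genes that did not. Among the 51 measured genes with a window that fell with retinoic acid under both hairpins, 28 had an ETS core, 7 an NRF1 core and 9 a YY1 core. Among the other 14 measured genes the counts were 8, 1 and 2.

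**Figure D1:**
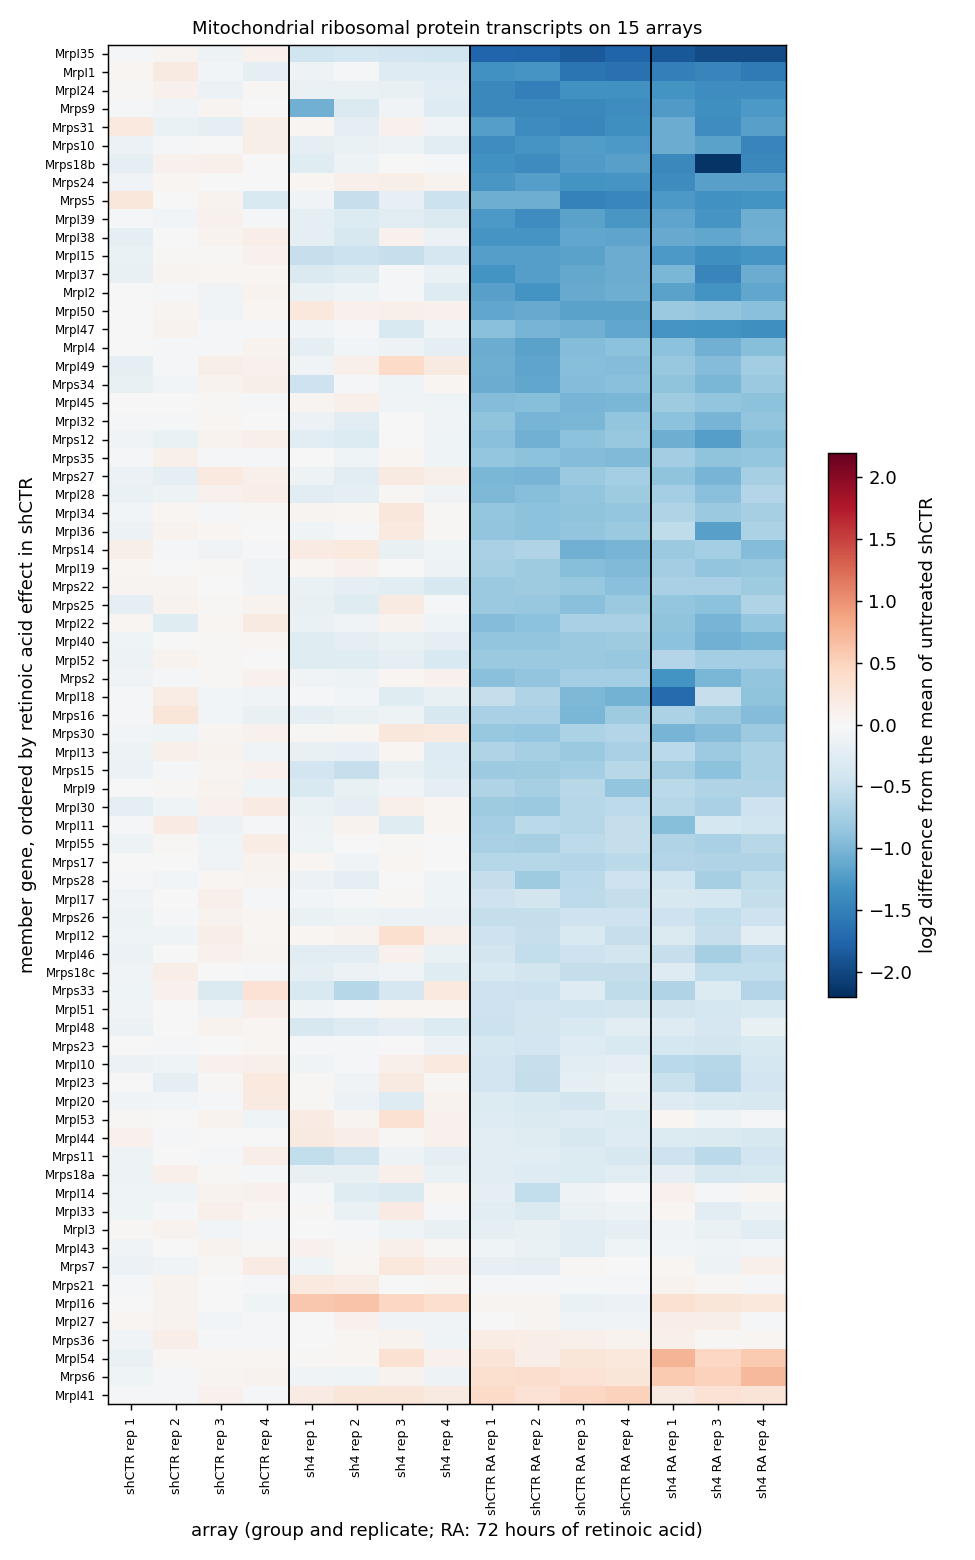
Each row is 1 of the 74 measured genes and each column 1 of the 15 arrays, with colour giving the log2 difference from the gene's mean over the 4 untreated shCTR arrays (blue lower, red higher). The 7 arrays with retinoic acid are blue for most rows, with a median over the genes between −0.78 and −0.68, while the 8 untreated arrays have medians between −0.10 and 0.04.

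Retinoic acid in shCTR cells asks how the particle's transcripts behave when control stem cells differentiate. Of the 74 genes 65 fell, 3 rose and 6 did not pass. Over all genes tested 62.4% passed in this comparison, 33.5% lower and 29.0% higher, so a call in either direction was common. The median of the 74 was −0.78 (58.2% of the untreated level), against −0.12 over all genes. On 63 genes every treated shCTR array read lower than every untreated shCTR array, which held for 32.0% of all genes, and on 3 every treated array read higher (27.9% of all genes). The estimate was above 0 for 4 of the 74 and for 43.5% of all genes.

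The falls were found in both subunits and in proteins old and new. In the large subunit 25 of 28 proteins with a bacterial counterpart fell (median −0.77) and none rose, and 17 of 19 mitochondria-specific proteins fell (median −0.63) while 2 rose. In the small subunit 13 of 16 proteins with a bacterial counterpart fell and 1 rose (median −0.77), and 10 of 10 mitochondria-specific proteins fell (median −0.87). Mrps30 and Mrps18a, which sit in the large subunit despite their names, are counted there. Mrps36, now known as a subunit of 2-oxoglutarate dehydrogenase and not of the ribosome, is in no class; it did not pass in shCTR (0.12 ± 0.06, adjusted p = 0.11) or in sh4 (0.05 ± 0.07, adjusted p = 0.55). A second probe of Mrps36 was higher in both (0.25 ± 0.05 and 0.38 ± 0.06, adjusted p = 0.001 and 7.1e-05 over all probes), and the first passed higher with quantile normalisation (0.30 and 0.20) and with the deposited values (0.31 and 0.23).

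Mrpl35, a large subunit protein, had the lowest log2 fold change. Its levels were −0.25, −0.16, −0.33 and −0.12 on the untreated shCTR arrays and −1.96, −1.99, −2.06 and −1.99 after retinoic acid. The groups lay far apart and each was tight, and 29.0% of the untreated level remained (−1.78 ± 0.06, adjusted p = 5.8e-12). Its probe maps to chr6:71765277-71765336 on mm9, minus strand. Mrpl1, part of the stalk past which spent tRNA leaves, read 0.67, 0.81, 0.56 and 0.43 untreated and −0.71, −0.68, −0.98 and −1.03 treated (−1.47 ± 0.10, adjusted p = 2.4e-08). Its treated arrays also stood below every untreated one.

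Mrpl24, which lies beside the exit of the peptide tunnel, went from 4.74, 4.82, 4.59 and 4.75 to 3.30, 3.22, 3.39 and 3.38 (−1.40 ± 0.06, adjusted p = 1.7e-10). Mrps9, a protein of the small subunit head, went from 3.20, 3.15, 3.28 and 3.22 to 1.81, 1.80, 1.80 and 1.86 (−1.40 ± 0.15, adjusted p = 2.3e-06). Mrps31, specific to mitochondria, went from 3.79, 3.43, 3.35 and 3.70 to 2.35, 2.19, 2.13 and 2.22 (−1.35 ± 0.11, adjusted p = 7.9e-08). In all 3 genes the treated and untreated arrays were separated, and the calls were kept whichever array was left out.

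**Figure D2:**
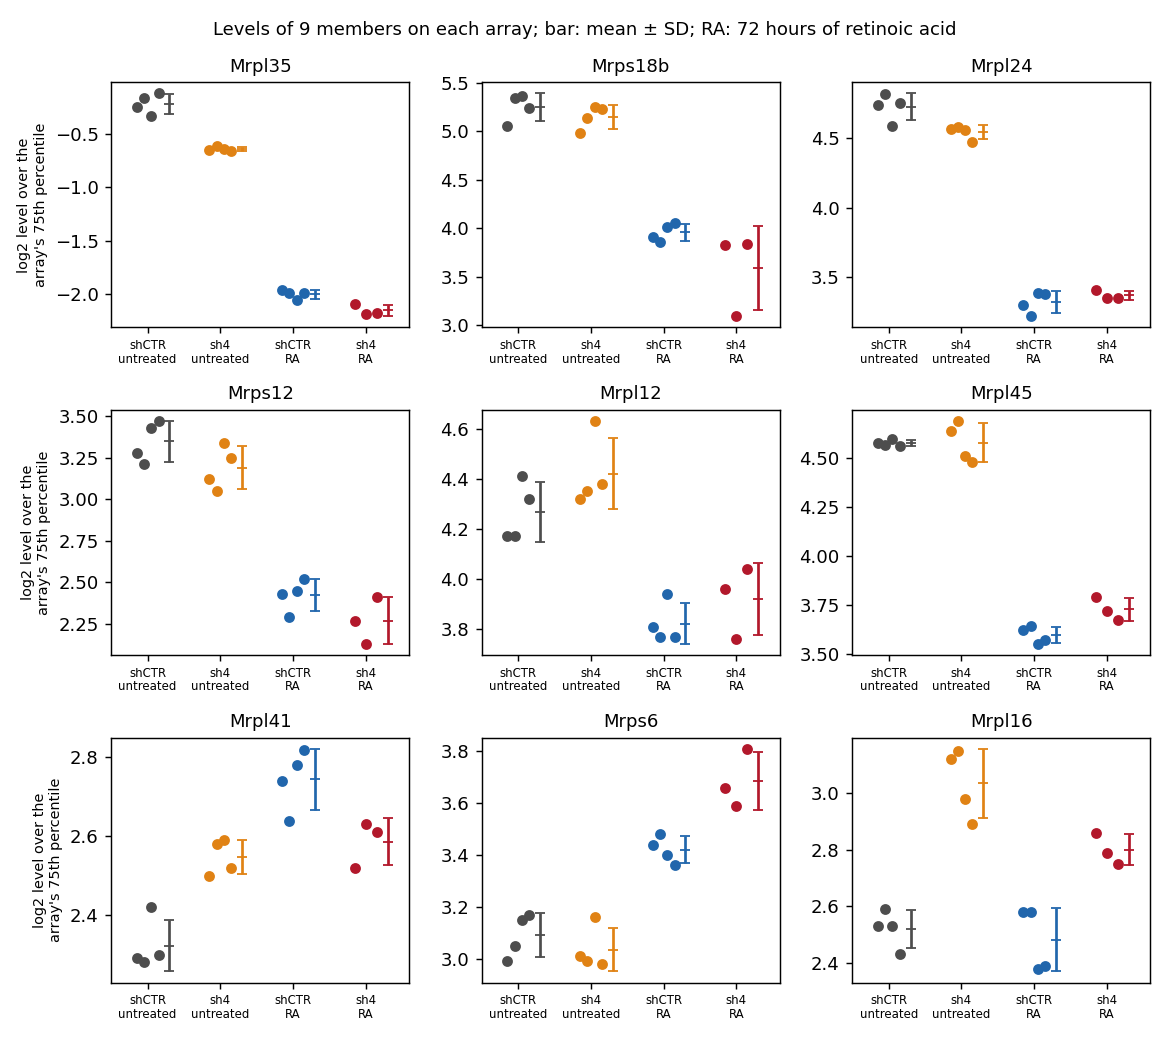
Points are the log2 levels of 9 genes on single arrays, relative to the array's 75th percentile, for the 4 groups named under each panel; the bar beside the points is the mean ± SD. Mrpl35, Mrps18b, Mrpl24, Mrps12, Mrpl12 and Mrpl45 were lower on every treated array than on every untreated array of the same hairpin, Mrps6 was higher on every treated array, Mrpl41 was higher on treated shCTR arrays, and Mrpl16 was higher in sh4 than in shCTR. Axes differ between panels.

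Genes of known role were described whatever their values. The stalk that recruits translation factors fell by less than the median of the list: Mrpl10 changed by −0.35 ± 0.10 (adjusted p = 0.0058), Mrpl11 by −0.63 ± 0.12 (adjusted p = 4.5e-04) and Mrpl12, the stalk protein itself, by −0.45 ± 0.09 (adjusted p = 5.7e-04). Mrpl12 read 4.17, 4.17, 4.41 and 4.32 untreated and 3.81, 3.77, 3.94 and 3.77 treated. Its groups did not overlap. The calls of this trio depend on the scale: Mrpl12 did not pass with quantile normalisation (−0.20) or the deposited values (−0.18), Mrpl10 not with the former (−0.20) and Mrpl11 not with the latter (−0.34).

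Around the tunnel exit, where the particle is tied to the inner membrane, Mrpl45, the membrane anchor, fell by 0.99 on the log2 scale (SE 0.06, adjusted p = 3.6e-09) from 4.58, 4.57, 4.60 and 4.56 to 3.62, 3.64, 3.55 and 3.57. Mrpl22 fell by 0.83 (SE 0.10), Mrpl23 by 0.33 (SE 0.11) and Mrpl44, related to bacterial ribonuclease III, by 0.29 (SE 0.06), with adjusted p of 3.8e-06, 0.016 and 4.0e-04. The treated and untreated arrays overlapped for Mrpl23. Mrpl23 (−0.07 and −0.06) and Mrpl44 (−0.10 and −0.09) did not pass with quantile normalisation or the deposited values, and the call of Mrpl23 was kept in 13 of 15 cases with an array left out. Neighbours in the particle thus covered a wide span, from −1.40 for Mrpl24 to −0.29 for Mrpl44.

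Mrps12, a protein of the decoding centre, read 3.28, 3.21, 3.43 and 3.47 untreated and 2.43, 2.29, 2.45 and 2.52 treated (−0.93 ± 0.09, adjusted p = 6.7e-07). The 3 relatives of bacterial S18 differed in size: Mrps18b changed by −1.29 ± 0.15 (adjusted p = 3.2e-06), Mrps18c by −0.45 ± 0.08 (adjusted p = 2.0e-04) and Mrps18a by −0.28 ± 0.08 (adjusted p = 0.0057). Mrps18b read 5.05, 5.34, 5.36 and 5.24 untreated and 3.91, 3.86, 4.01 and 4.05 treated, without overlap. These proteins sit at different places in the particle, and the class counts follow those places. Mrps18a did not pass with quantile normalisation (−0.08) or the deposited values (−0.07). A test between the 3 changes was not run.

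Of 3 genes known from inherited respiratory chain disease, Mrps16 fell by 0.80 (SE 0.10, adjusted p = 1.1e-05), Mrps22 by 0.85 (SE 0.06, adjusted p = 2.1e-08) and Mrpl3 by 0.20 (SE 0.06, adjusted p = 0.0076), with Mrpl3 at 0.02 under quantile normalisation and 0.01 in the authors' values, not called in either. Mrps30 fell by 0.76 (SE 0.08) and Mrpl37 by 1.18 (SE 0.10), with adjusted p of 1.8e-06 and 2.2e-07.

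The 3 genes that rose were Mrpl41, Mrps6 and Mrpl54. Mrpl41, a mitochondria-specific protein of the large subunit, read 2.29, 2.28, 2.42 and 2.30 untreated and 2.74, 2.64, 2.78 and 2.82 treated (0.42 ± 0.06, adjusted p = 1.8e-05). Mrps6 of the small subunit read 2.99, 3.05, 3.15 and 3.17 untreated and 3.44, 3.48, 3.40 and 3.36 treated (0.33 ± 0.07, adjusted p = 7.0e-04). Mrpl54 of the large subunit read 2.61, 2.80, 2.80 and 2.80 against 3.04, 2.90, 3.01 and 2.99 (0.23 ± 0.08, adjusted p = 0.025). In each the lowest treated array exceeded the highest untreated one. With every array centred on its median the values were 0.22, 0.13 and 0.03, and the 3 genes did not pass (limma, adjusted p = 0.12, 0.42 and 0.86). The call of Mrpl54 was also lost without replicate 1 of untreated shCTR (0.19, limma, adjusted p = 0.078) and without replicate 1 or 3 of treated shCTR (adjusted p = 0.062 and 0.054). The 6 genes that did not pass were Mrpl14 (−0.22), Mrps7 (−0.10), Mrps21 (−0.05), Mrpl16 (−0.04), Mrpl27 (−0.02) and Mrps36 (0.12), named here after their values were seen.

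The size of the fall depends on how arrays are set to one scale, since retinoic acid shifts many genes. Centring on the array median put the 74 at −0.98 and all genes at −0.33, while quantile normalisation gave −0.57 and −0.15 and the authors' deposited log2 values −0.56 and −0.08. Relative to the median of all genes the 74 stood at −0.66 with the 75th percentile and at −0.65, −0.42 and −0.48 under these, and at −0.53 with normexp background correction. With quantile normalisation 52 genes fell and 7 rose, as with the deposited values, and with median centring 69 passed, all lower. In all, 49 of the 74 fell under all 5 combinations of background correction and scaling, and 4 (Mrpl16, Mrpl27, Mrpl43 and Mrps21) were called lower under some and higher under others. With the slide as a block 66 fell and 3 rose, and within the 4 slides the median was −0.66, −0.77, −0.79 and −0.79.

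Retinoic acid in sh4 cells asks the same with the hairpin present, on arrays that the shCTR comparison did not use. Of the 74 genes 60 fell and 2 rose, where 58.7% of all genes passed, 31.6% lower and 27.1% higher. The median was −0.63 (64.7% of the untreated level) against −0.12 over all genes. Treated arrays lay wholly below untreated ones for 61 genes (31.0% of all genes) and wholly above for 2 (26.9%), and the estimate was above 0 for 7 (43.0% of all genes). By class, 24 of 28 and 15 of 19 large subunit genes fell (bacterial counterpart and mitochondria-specific, medians −0.61 and −0.48), and 12 of 16 and 9 of 10 small subunit genes (medians −0.64 and −0.75). With the slide as a block 59 fell and 3 rose, and the medians within slides 1, 2 and 3 were −0.51, −0.61 and −0.68. Quantile normalisation gave 47 lower and 9 higher and the deposited values 45 and 9, which moves the share of higher calls by over 10 percentage points; Mrps6 was the only gene called higher, and 44 genes were called lower, under all 5 combinations of background correction and scaling.

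Mrps18b had the largest fall in sh4. It read 4.98, 5.14, 5.25 and 5.23 untreated and 3.83, 3.09 and 3.84 treated (−1.57 ± 0.16, adjusted p = 1.2e-06), with replicate 3 the lowest of the treated arrays by a wide margin. A second probe of Mrps18b, of lower signal, gave −1.55 ± 0.13 in sh4 and −1.23 ± 0.12 in shCTR. Mrpl35 read −0.65, −0.61, −0.64 and −0.66 untreated and −2.09, −2.19 and −2.18 treated (−1.51 ± 0.06, adjusted p = 9.2e-11).

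Mrps24 of the small subunit went from 3.51, 3.58, 3.59 and 3.54 to 2.08, 2.27 and 2.27 (−1.35 ± 0.06, adjusted p = 3.5e-10). Mrpl1 went from 0.51, 0.59, 0.34 and 0.34 to −0.89, −0.83 and −0.94 (−1.33 ± 0.11, adjusted p = 1.8e-07), and Mrps31 changed by −1.19 ± 0.11 (adjusted p = 7.8e-07). Every treated array of these genes stood below every untreated one.

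The genes of known role were measured in sh4 as well. Of the stalk, Mrpl10 changed by −0.58 ± 0.10 (adjusted p = 2.7e-04), Mrpl11 by −0.52 ± 0.13 (adjusted p = 0.0038) and Mrpl12 by −0.50 ± 0.10 (adjusted p = 4.6e-04). With quantile normalisation and the deposited values Mrpl11 (−0.23 and −0.30) and Mrpl12 (−0.23 and −0.20) did not pass. At the tunnel exit Mrpl24 fell by 1.18, Mrpl22 by 0.86, Mrpl45 by 0.85, Mrpl23 by 0.56 and Mrpl44 by 0.45, of which Mrpl23 did not pass with quantile normalisation (−0.28). Mrps12 read 3.12, 3.05, 3.34 and 3.25 untreated and 2.27, 2.13 and 2.41 treated (−0.92 ± 0.10, adjusted p = 1.9e-06). Mrps18c and Mrps18a again had smaller falls than Mrps18b, of 0.29 and 0.20 (adjusted p = 0.011 and 0.049), and neither passed with quantile normalisation (−0.13 and −0.04) or the deposited values (−0.10 and −0.06). Mrps18c did not pass with normexp either (−0.25), nor Mrps18a with median centring (−0.34) or with the slide as a block (adjusted p = 0.054). With an array left out the call of Mrps18a was kept in 5 of 15 cases and that of Mrps18c in 13. Mrps30 fell by 1.06, Mrpl37 by 0.99, Mrps16 by 0.61 (−0.33 and not called with the deposited values) and Mrps22 by 0.50, while Mrpl3 did not pass (−0.07 ± 0.06, adjusted p = 0.35).

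Both genes that rose in sh4 also rose in shCTR. Mrps6 read 3.01, 2.99, 3.16 and 2.98 untreated and 3.66, 3.59 and 3.81 treated (0.65 ± 0.07, adjusted p = 3.4e-06), and Mrpl54 read 2.78, 2.80, 3.08 and 2.85 against 3.49, 3.21 and 3.33 (0.47 ± 0.09, adjusted p = 4.8e-04). In both genes the groups did not overlap. With arrays centred on their median Mrps6 still passed (0.51) and Mrpl54 did not (0.32, limma, adjusted p = 0.091). Mrpl41 did not pass in sh4 (0.04 ± 0.06, adjusted p = 0.62).

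**Figure D3:**
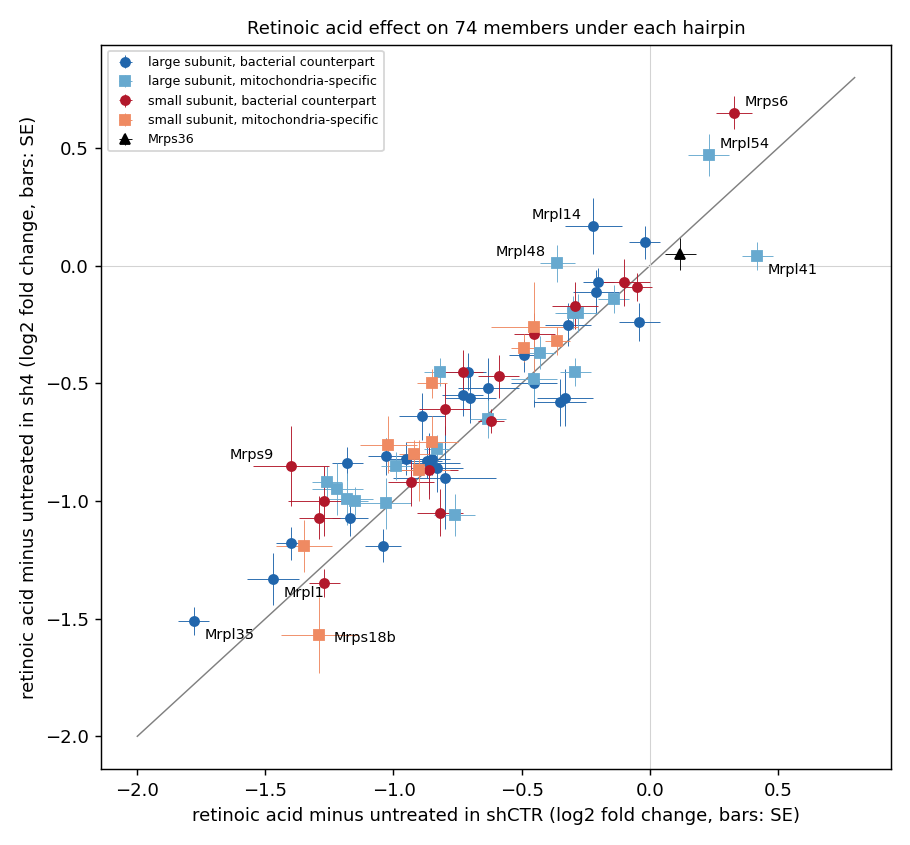
Each point is 1 of the 74 genes, with its retinoic acid effect in shCTR on the horizontal axis and in sh4 on the vertical axis (log2 fold change, bars ± SE), coloured by subunit and origin; the line marks equal effects. The effects correlate with r = 0.92, most points lie below 0 on both axes, and 55 of 74 lie above the line.

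The effects of retinoic acid under the 2 hairpins, which share no array, ordered the genes alike. Across the 74 genes Pearson's r was 0.92 and Spearman's rho 0.92, and over all 25090 genes 0.90 and 0.86; these are correlations across genes, which are not independent replicates, and all 15 samples share the array design. Under both hairpins 59 genes fell and 2 rose, and none changed in opposite directions. Of all 25090 genes 6702 fell and 5862 rose under both, and only 336 changed in opposite directions, so the lack of such genes is not particular to the 74. A fall of more than 1 on the log2 scale was seen in 19 genes in shCTR, 13 in sh4 and 11 in both. Among all 25090 genes these counts were 3007, 2912 and 2133. Leaving out each of the 15 arrays in turn kept 63 of the 68 calls in shCTR, and 57 of the 62 in sh4, in every case.

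Other parts of mitochondrial translation were counted as lists. The counts stand beside all genes tested, of which 33.5% fell and 29.0% rose in shCTR, and 31.6% fell and 27.1% rose in sh4. All 7 other subunits of the particle fell under both hairpins (medians −0.79 and −0.74), among them Ptcd3 (−1.06 ± 0.10 in shCTR, adjusted p = 3.2e-07) and Gadd45gip1 (−0.84 ± 0.11, adjusted p = 1.4e-05). Of 20 mitochondrial tRNA synthetases and related enzymes 17 fell and 2 rose under each hairpin (medians −0.82 and −0.62). The asparagine enzyme Nars2 had the largest fall in shCTR (−1.36 ± 0.13, adjusted p = 7.7e-07), followed by Sars2, and Wars2, for tryptophan, and Gatc, of the glutamine amidotransferase, rose (0.74 ± 0.09 and 0.77 ± 0.14, adjusted p = 8.3e-06 and 2.8e-04). Of 14 translation factors and membrane partners 8 fell and 3 rose in shCTR, and 8 fell and 1 rose in sh4. The share that rose did not exceed that of all genes under either hairpin. In shCTR Tsfm, the elongation factor that recharges EF-Tu, changed by −1.20 ± 0.10 (adjusted p = 2.1e-07) and the release factor relative Mtrf1 by −0.99 ± 0.15 (adjusted p = 6.9e-05). The release factor Mtrf1l (0.60 ± 0.17, adjusted p = 0.0062) and Letm1 of the inner membrane (0.28 ± 0.06, adjusted p = 0.0012) rose most in shCTR, and the initiation factor Mtif3 rose in sh4 (0.28 ± 0.10, adjusted p = 0.033).

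Factors that assemble or modify the ribosome fell in 16 of 21 cases in shCTR and 18 of 21 in sh4, and the others did not pass (medians −0.66 and −0.56). For this list and those below, 33.5% of all genes fell in shCTR and 31.6% in sh4. The GTPase Gtpbp10 changed by −1.56 ± 0.11 in shCTR (adjusted p = 2.5e-08) and −1.36 ± 0.12 in sh4 (adjusted p = 2.9e-07), and the GTPase Mtg1 by −1.29 ± 0.15 in shCTR (adjusted p = 5.1e-06). Nuclear subunits of the respiratory chain and ATP synthase, whose partners this ribosome makes, were taken by the start of their names. This rule also admits assembly factors with names that begin with Ndufaf. The listed genes fell in 74 of 85 cases in shCTR and 61 of 85 in sh4, with 2 higher in each (medians −0.59 and −0.41). Cox6b2 (−1.82 ± 0.09, adjusted p = 3.7e-10) and Ndufa4l2 (−1.81 ± 0.11, adjusted p = 4.2e-09) fell most in shCTR, and Ndufab1 (0.57 ± 0.09, adjusted p = 6.6e-05) and Cox4i2 (0.44 ± 0.09, adjusted p = 4.6e-04) rose. Proteins of the cytosolic ribosome fell in 48 and 45 of 79 cases, and the others did not pass (medians −0.34 and −0.31); Rpl10l (−1.27 ± 0.21, adjusted p = 1.2e-04) and Rpl13 (−0.98 ± 0.29, adjusted p = 0.0093) fell most in shCTR. These medians stand beside −0.78 and −0.63 for the mitochondrial set and −0.12 for all genes; the differences between lists were not tested.

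**Figure D4:**
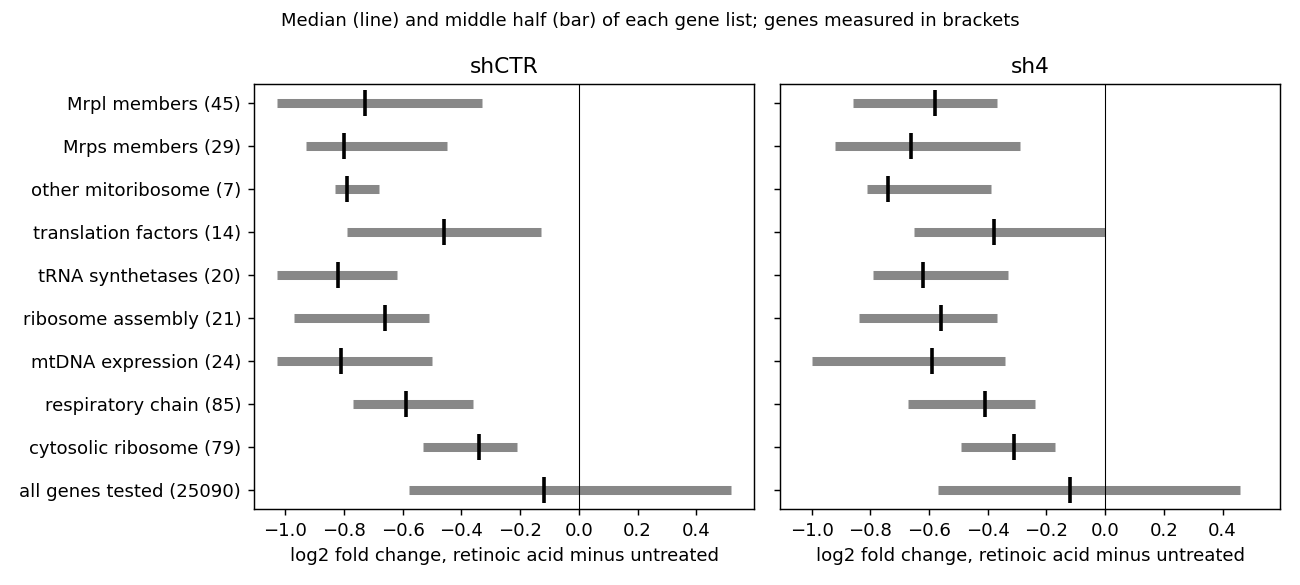
Black lines mark the median log2 fold change with retinoic acid, and grey bars the interquartile range, for each gene list named at the left (genes measured in brackets), in shCTR (left) and sh4 (right). The medians of the Mrpl and Mrps genes, −0.73 and −0.80 in shCTR and −0.58 and −0.66 in sh4, lie below those of the cytosolic ribosome, −0.34 and −0.31, and of all genes, −0.12 in both.

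Many of these genes face another gene. Of the 66 with a promoter window, 25 (37.9%) had the start of a gene on the other strand, reading away, within 1000 bases upstream, against 12.3% of all genes with a window. Mrpl46 and Mrps11 face each other at 42 bases, and both fell in shCTR (−0.45 ± 0.09 and −0.29 ± 0.09, adjusted p = 3.9e-04 and 0.015), while in sh4 Mrpl46 fell (−0.48 ± 0.09, adjusted p = 5.3e-04) and Mrps11 did not pass (−0.17 ± 0.10, adjusted p = 0.16). Of 22 measured partners that are not Mrp genes themselves, 15 fell and the others did not pass in shCTR, and 12 fell and 1 rose in sh4. Over all genes tested 33.5% fell in shCTR and 31.6% in sh4. In 21 of these pairs the Mrp gene was measured too, the exception being Mrpl21 with Ighmbp2. In 12 pairs gene and partner both fell in shCTR, and in 7 both fell in sh4. Of the partners in these 21 pairs 15 fell in shCTR and 11 in sh4, and most of the Mrp genes fell. Whether gene and partner fell together more often than unlinked genes was not tested.

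Mrps12 and Sars2, the serine tRNA synthetase of mitochondria, start 147 bases apart. Sars2 changed by −1.25 ± 0.08 in shCTR (adjusted p = 1.3e-08) and −0.87 ± 0.09 in sh4 (adjusted p = 1.6e-06), beside −0.93 ± 0.09 and −0.92 ± 0.10 for Mrps12. Other pairs were parted: Mrpl37 changed by −1.18 ± 0.10 while Cyb5rl, 128 bases away, did not pass in shCTR (0.04 ± 0.09, adjusted p = 0.70) and rose in sh4 (0.49 ± 0.09, adjusted p = 4.0e-04), and Mrps18b changed by −1.29 ± 0.15 while Ppp1r10, 756 bases away, did not pass (0.16 ± 0.19, adjusted p = 0.49). The pairs named were chosen after their values were seen.

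Setting untreated sh4 against untreated shCTR asks which transcripts follow the hairpin before differentiation. Of the 74 genes 12 passed, 2 higher and 10 lower, which is 16.2% where 28.6% of all genes passed (14.4% higher, 14.1% lower). The median was −0.07, against 0.02 over all genes, and the estimate was above 0 for 23 (52.4% of all genes). Arrays did not overlap for 13 genes lower in sh4 (14.2% of all genes) and 4 higher (14.1%). With the slide as a block 19 passed, 4 higher and 15 lower, and within slides the median was −0.03, −0.10, −0.03 and −0.11. Median centring gave 4 and normexp background correction 6. With normexp the median was −0.07 beside −0.08 for all genes, so the 74 did not lie below all genes there, and without replicate 2 of untreated sh4 it was −0.06 beside −0.03.

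Mrpl16, which lies close to the site of peptide bond formation, rose most. It read 2.53, 2.59, 2.53 and 2.43 in shCTR and 3.12, 3.15, 2.98 and 2.89 in sh4 (0.51 ± 0.08, adjusted p = 1.4e-04), with every sh4 array above every shCTR array. Mrpl41 read 2.29, 2.28, 2.42 and 2.30 against 2.50, 2.58, 2.59 and 2.52 (0.23 ± 0.06, adjusted p = 0.0087), also without overlap.

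Mrpl15 of the large subunit fell most, from 2.31, 2.47, 2.48 and 2.55 to 1.94, 1.98, 1.94 and 2.08 (−0.47 ± 0.06, adjusted p = 5.2e-05). Mrpl35 went from −0.25, −0.16, −0.33 and −0.12 to −0.65, −0.61, −0.64 and −0.66 (−0.42 ± 0.06, adjusted p = 5.7e-05). The arrays of both genes were separated by hairpin, and both calls were kept whichever array was left out. Mrps15 (−0.33 ± 0.08, adjusted p = 0.0088), Mrps11 (−0.32 ± 0.09, adjusted p = 0.018) and Mrpl48 (−0.28 ± 0.07, adjusted p = 0.0091) followed. The arrays of Mrps11 met at 1.07, while those of Mrps15 and Mrpl48 were separated.

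Smaller falls were found for Mrpl52, Mrpl39, Mrps22, Mrpl40 and Mrpl24, between −0.26 and −0.18. Of the 12 calls 10 were kept whichever array was left out; that of Mrpl24 (adjusted p = 0.044) was kept in 2 of 15 cases and that of Mrps11 in 12. Mrps9 read 3.20, 3.15, 3.28 and 3.22 in shCTR and 2.17, 2.91, 3.14 and 2.93 in sh4. Its replicate 1 in sh4 stood far below the others, and the change did not pass (−0.43 ± 0.15, adjusted p = 0.053).

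In retinoic acid, sh4 differed from shCTR in 6 of the 74 genes, 5 higher and 1 lower, or 8.11% where 21.2% of all genes passed (10.9% higher, 10.3% lower), and the median was 0.04, the same as over all genes. The estimate was above 0 for 44 (55.4% of all genes), and arrays did not overlap for 7 genes lower in sh4 (14.5% of all genes) and 10 higher (17.9%). With the slide as a block 9 passed (6 higher, 3 lower), and with median centring 1 of the 6 did; the medians within 3 slides were 0.06, 0.01 and 0.05. Mrpl54 (0.36 ± 0.09, adjusted p = 0.011), Mrpl16 (0.32 ± 0.08, adjusted p = 0.013), Mrpl50 (0.28 ± 0.06, adjusted p = 0.0027), Mrpl53 (0.27 ± 0.07, adjusted p = 0.014) and Mrps6 (0.27 ± 0.07, adjusted p = 0.019) rose, and Mrpl47 fell (−0.29 ± 0.07, adjusted p = 0.015). The brightest Mrpl47 probe, fitted on 13 arrays without the 2 that flag it, gave −0.30 ± 0.17 and did not pass (adjusted p = 0.29); with retinoic acid it gave −1.11 ± 0.14 in shCTR and −1.31 ± 0.18 in sh4, beside −1.04 and −1.19.

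Mrpl16 read 2.58, 2.58, 2.38 and 2.39 in treated shCTR and 2.86, 2.79 and 2.75 in treated sh4. It passed higher in sh4 under both treatments, and its arrays did not overlap in either. Mrpl50 read 1.07, 1.11, 1.05 and 1.05 against 1.41, 1.36 and 1.30, and it was the gene whose call was kept whichever array was left out. The other 5 calls were lost without some array, and without replicate 1 of sh4 with retinoic acid, 1 of the 3 arrays that the scanner software rated as needing evaluation, 3 of the 6 remained.

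**Figure D5:**
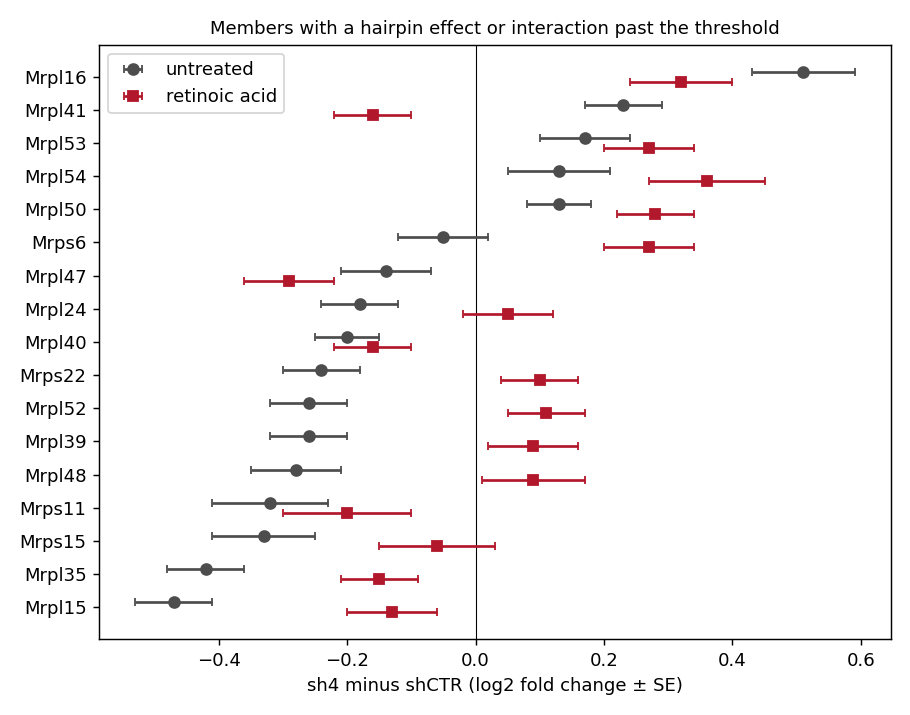
Points give the difference of sh4 from shCTR (log2 fold change ± SE) in untreated cells (grey circles) and in retinoic acid (red squares) for the 17 genes that passed in either comparison or in the interaction. Mrpl16 lies above 0 under both treatments, Mrpl41 is at 0.23 untreated and −0.16 in retinoic acid. Since the genes were selected by these effects, their spread about 0 is not a result.

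The interaction, which is the hairpin effect in retinoic acid minus that in untreated cells, and equally the retinoic acid effect in sh4 minus that in shCTR, passed in 8 of the 74 genes, 7 above 0 and 1 below, or 10.8% where 20.5% of all genes passed (10.2% above 0 and 10.2% below). The estimate was above 0, meaning a less negative or more positive effect of retinoic acid in sh4, in 55 of 74 genes (74.3%) against 51.3% of all genes, and the median was 0.11 against 0.01. Within 3 slides the median was 0.11, 0.09 and 0.05. With normexp background correction it was 0.08, with all genes at 0.12, so the 74 did not lie above all genes there. Without replicate 4 of sh4 with retinoic acid it was 0.09 beside 0.07, and without replicate 2 of untreated sh4 0.08 beside 0.05.

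Mrpl48 (0.37 ± 0.11, adjusted p = 0.024), Mrpl52 (0.37 ± 0.08, adjusted p = 0.0057), Mrpl39 (0.34 ± 0.09, adjusted p = 0.020), Mrps22 (0.34 ± 0.09, adjusted p = 0.012) and Mrpl15 (0.34 ± 0.09, adjusted p = 0.017) were lower in untreated sh4 than in untreated shCTR, and their retinoic acid effect was less negative in sh4. Mrpl52 read 3.28, 3.47, 3.42 and 3.38 in untreated shCTR, 3.12, 3.13, 3.20 and 3.06 in untreated sh4, 2.57, 2.58, 2.57 and 2.56 in treated shCTR, and 2.75, 2.64 and 2.65 in treated sh4. The sh4 arrays were below the shCTR arrays untreated and above them in retinoic acid, where the difference did not pass (0.11 ± 0.06, adjusted p = 0.24). Mrpl35 (0.27 ± 0.08, adjusted p = 0.033) had an interaction of the same sign, as had Mrps6 (0.32 ± 0.10, adjusted p = 0.037) whose rise was larger in sh4; both calls were kept in 5 of 15 cases with an array left out.

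Mrpl41 went the other way (−0.38 ± 0.08, adjusted p = 0.0054). It read 2.74, 2.64, 2.78 and 2.82 in treated shCTR and 2.52, 2.63 and 2.61 in treated sh4, and its retinoic acid effect was 0.42 in shCTR and 0.04 in sh4. It did not pass with normexp (−0.43, adjusted p = 0.11) or median centring (−0.32, adjusted p = 0.31). With the slide as a block 14 genes passed the interaction, 10 above 0 and 4 below, all 8 among them. For the 74 genes, normexp left 2 and, by limma, median centring 0 past the threshold (4 at an unadjusted p under 0.05), leaving out replicate 4 of sh4 with retinoic acid left 5, and leaving out the 3 arrays rated as needing evaluation left 2.

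Of the genes, 19 had at least 2 usable probes, which gives a check within the arrays. With retinoic acid in shCTR the probes had the same sign in 18 of 19 genes and both passed the same way in 13, with a median gap of 0.10 and none called in opposite directions. In sh4 the counts were 18 and 11. For sh4 against shCTR the probes had the same sign in 13 of 19 genes untreated and in 12 in retinoic acid. Both probes passed the same way in 1 gene untreated and in 0 in retinoic acid, so single hairpin calls have little backing from a second probe. The widest gap in shCTR was that of Mrpl41, whose second probe, at a mean of 79.2 intensity units, gave 1.44 ± 0.38 (adjusted p = 0.0058, adjusted over all probes) beside 0.42. For Mrpl49 the brighter probe gave −1.03 ± 0.11 and the other −0.15 ± 0.09 (adjusted p = 0.19), so its fall rests on 1 of 2 probes. Where in each transcript a probe lies was not examined here.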

How the data were processed

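The deposited scanner files hold, per the file headers, Cy3 intensity from Feature Extraction 10.7.3.1 with the authors' background-subtracted processed signal, and probe coordinates on mm9. Spots of a probe without outlier flags were averaged, log2 was taken and each array's 75th percentile subtracted. Kept probes exceeded background (the scanner's flag) on 3 or more arrays of 1 group, and the kept probe with the highest mean and no array lost to flags stood for its gene name. All 15 arrays entered 1 model of 4 groups in limma 3.58.1 (R 4.3.3), two-sided, adjusted over 25090 genes, with a threshold of 0.05. The authors' deposited log2 values, which normexp with an offset of 50 and quantile normalisation of the mean signal matched to a median difference of 3.4e-10, served as an alternative. Others were normexp, median centring, quantile normalisation, probe averaging, array weights, blocks and leaving out arrays; the procedure was tested on simulated data. The gene set, lists and tests were chosen with earlier results of these data known. Genes were named by size (5 per direction and comparison), by known role, and from the 2 with the largest change per direction in each other list. Gabpa and Yy1 were named outside these rules.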

Additional observations from a re-analysis of the deposited data

Results flagged for a closer look

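In 8 of 111 groups of 4 arrays, the lowest or highest array stood apart from the others, where chance does this in about 1 group in 20. In untreated shCTR, replicate 1 was lowest for Mrpl37 (1.70, the others 1.90 to 1.92) and for Mrpl54 (2.61, the others at 2.80). In untreated sh4, replicate 3 was lowest for Mrpl47 (−1.39) and highest for Mrps18a (2.46) and Mrps6 (3.16), and replicate 1 was highest for Mrpl50 (2.45). In shCTR with retinoic acid, replicate 4 was highest for Mrps9 (1.86, the others 1.80 to 1.81). The median over the 74 genes, as a difference from the untreated shCTR mean, was 0.01 on replicate 3 of untreated sh4 and −0.10 to −0.09 on the others; the scanner software rated that array as needing evaluation.

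The hairpin's effect differed between retinoic acid and untreated cells, by limma's interaction term, in 8 genes. The difference was 0.37 for Mrpl48 and Mrpl52, 0.34 for Mrpl15, Mrpl39 and Mrps22, 0.32 for Mrps6, 0.27 for Mrpl35 and −0.38 for Mrpl41.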

How the results depend on the processing

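The medians of the 74 genes with retinoic acid kept their direction under every alternative run; counts of calls in the 2 comparisons of hairpins and the interaction moved more, and the cause was not tested. Normexp left 6 calls for the hairpin untreated and 2 for the interaction. Median centring left 4 for the hairpin untreated, 1 in retinoic acid and 0 for the interaction (limma; 4 at an unadjusted p under 0.05), with retinoic acid medians of −0.98 in shCTR and −0.77 in sh4. These medians were −0.57 and −0.43 with quantile normalisation, −0.56 and −0.38 with the deposited values, −0.72 and −0.56 with probes averaged, and −0.66 and −0.51 within slide 1. The slide as a block gave 19 for the hairpin untreated and 14 for the interaction, and array weights gave 11 for the hairpin in retinoic acid. Without the 3 arrays rated as needing evaluation, chosen after seeing the data, 2 interactions passed. With 1 array left out, the hairpin in retinoic acid gave 3 to 6 and the interaction 5 to 8. The share of all genes passing under each alternative is not given, so these counts alone do not show a trait of the 74 genes.

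Over the 5 combinations of background correction and scaling the sign turned for 9 of the 74 genes with retinoic acid in shCTR and 12 in sh4, 3 of them called in each (Mrpl3, Mrpl33 and Mrpl43; Mrpl16, Mrpl20 and Mrpl53). Among them were Mrpl16 with the deposited values (0.21 in shCTR and 0.04 in sh4 with retinoic acid) and in shCTR also with quantile normalisation (0.17) and normexp (0.02), Mrpl3 in shCTR (0.01 with the deposited values, 0.02 with quantile normalisation) and Mrpl53 in sh4 (0.01 with each).

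Same-numbered arrays deviated together in 18 of 21 pairs (r over 0.1, range −0.533 to 0.578) but not in all, so the numbers were not taken as pairs. Number and slide were the same except for replicates 3 and 4 of sh4 with retinoic acid, which lay on slides 2 and 3. The 2 factors can therefore hardly be told apart. Arrays of 1 slide did so in 21 of 21 pairs (0.115 to 0.607), against 21 of 63 on different slides; slide-blocked counts stand beside each comparison. With the replicate number as a block 13 genes passed for the hairpin untreated, 9 in retinoic acid, 67 and 62 for retinoic acid in shCTR and sh4, and 9 for the interaction.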

Other observations

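Genes that copy, transcribe and process mitochondrial DNA, with their regulators, fell in 21 of 24 cases with retinoic acid in shCTR and 19 of 24 in sh4 (medians −0.81 and −0.59), while 2 and 1 rose. Of all genes tested 33.5% fell in shCTR and 31.6% in sh4. The coactivator Ppargc1a is counted among those that rose under both hairpins, but its probe was well above background on 7 of 15 arrays. Since 3 such arrays of 1 group kept a probe, it can have entered through the groups where it reads high. Its call is therefore not used as support, and no fold is given. Ppargc1b, a coactivator of mitochondrial biogenesis, changed by −1.71 ± 0.26 in shCTR and −2.41 ± 0.28 in sh4 (limma, adjusted p = 5.5e-05 and 5.1e-06), and Lactb2, a mitochondrial ribonuclease, by −1.64 ± 0.08 and −2.38 ± 0.09 (adjusted p = 4.7e-10 and 3.9e-11). Polg, the mitochondrial DNA polymerase, rose by 0.50 ± 0.08 in shCTR (adjusted p = 7.3e-05) and did not pass in sh4 (−0.11 ± 0.09, adjusted p = 0.31). Gabpa, the DNA-binding subunit of GABP, fell by 1.03 and 0.90 on the log2 scale, and Yy1 by 0.35 under both hairpins. These 2 genes were not named by size but for the promoter cores counted above, and no value is given for Nrf1. The ETS core stood in 28 of 51 genes that fell under both hairpins and in 8 of the other 14. A link between these factors and the falls was not tested.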
